A study of Mus musculus with 24 samples.

Results

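Erbb2 (HER2), Egfr, Epcam, Cdh1, Itgb4, Ceacam1, Muc1, Spink5 and Spp1 were taken by name from a panel of 770 genes measured in mouse mammary tumours. They are 9 genes that tumour epithelium is known to use, and each was described across all 24 tumour samples by treatment arm. The tumours grew from 50000 NT2.5 cells placed in the mammary fat pad of neu-N mice (female, FVB background, 7 to 8 weeks old). Treatment started after 3 days and ran for 3 weeks. The vehicle arm received isotype antibodies with 0.5% methylcellulose. The ENT arm received entinostat, an oral histone deacetylase inhibitor, at 5 mg/kg each day. Entinostat was joined by an antibody to PD-1 in the ENT+PD1 arm, by one to CTLA-4 in the ENT+CTLA4 arm, and by both in the ENT+PD1+CTLA4 arm. The ENT+CTLA4+HER2 arm received entinostat with antibodies to CTLA-4 and HER2, all antibodies at 100 µg per mouse. The labels also say that studies in these mice were run both with and without anti-HER2, and arms were taken here from the sample titles alone. The first 5 arms had 4 samples each and ENT+CTLA4+HER2 had 2. A further 2 samples carry titles that repeat those of ENT+PD1 replicates 1 and 2; this repeat-titled pair is shown but was left out of the tests. The labels do not say that samples of an arm came from separate animals, so p-values measure the spread between these samples.

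HER2 and EGFR are receptor tyrosine kinases of one family. EGFR binds ligands such as EGF, and HER2, which has no known ligand, pairs with other members of the family and signals through the RAS-MAPK and PI3K-AKT routes. Neu-N mice carry the rat form of HER2, neu, under the mammary tumour virus promoter, and NT2.5 cells derive from such a tumour. The Erbb2 probe was listed against a mouse transcript, and whether it also reads rat neu was not tested. EpCAM and E-cadherin (Cdh1) are adhesion molecules of epithelial cells, integrin beta 4 (Itgb4) anchors them to the basement membrane, and CEACAM1 is an adhesion receptor of epithelium that leukocytes also carry. MUC1 is a cell surface mucin, SPINK5 a secreted inhibitor of serine proteases, and osteopontin (Spp1) a secreted phosphoprotein made by tumour cells and macrophages.

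Promoter stretches are shown for 5 members that enter correlations described further on: Epcam with Spp1, Egfr against Epcam, and Erbb2 with Ceacam1. Each is the 120 bases just before the RefSeq start site in GRCm38.p6, written 5′ to 3′ on the strand of the gene. Capitals mark a GC box (GGGCGG on either strand) or an E-box (CANNTG, which reads alike on both strands). Of the 9 genes, 6 were matched in the promoter table.
Erbb2: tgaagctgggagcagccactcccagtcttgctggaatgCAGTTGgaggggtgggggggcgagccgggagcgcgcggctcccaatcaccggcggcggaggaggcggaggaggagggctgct
Egfr: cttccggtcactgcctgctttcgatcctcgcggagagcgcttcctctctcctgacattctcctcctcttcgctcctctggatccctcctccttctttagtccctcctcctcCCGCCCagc
Epcam: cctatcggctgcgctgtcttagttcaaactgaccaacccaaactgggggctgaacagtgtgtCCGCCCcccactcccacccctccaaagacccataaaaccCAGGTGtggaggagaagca
Ceacam1: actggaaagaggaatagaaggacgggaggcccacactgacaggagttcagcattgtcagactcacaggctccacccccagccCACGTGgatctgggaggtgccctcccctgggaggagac
Spp1: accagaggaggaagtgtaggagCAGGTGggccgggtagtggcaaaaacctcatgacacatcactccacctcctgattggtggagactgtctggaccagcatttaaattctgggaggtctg

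The Erbb2 stretch lies at chr11:98412364-98412483 on the plus strand and the Egfr stretch at chr11:16752083-16752202 on the plus strand. Those of Epcam and Spp1 lie at chr17:87635859-87635978 and chr5:104434991-104435110, both on the plus strand, and that of Ceacam1 at chr7:25477626-25477745 on the minus strand. Spp1 has 2 start sites in the table and the first is shown. A GC box matched in the stretches of Egfr and Epcam, and in 26.5% of all 32851 promoters over the same 120 bases. An E-box matched in those of Erbb2, Epcam, Ceacam1 and Spp1, and in 40.2% of all promoters. The stretch of the second Spp1 start site held 0 E-boxes. The letters TATAAA, searched on both strands, matched in none of the 5 stretches and in 6.34% of all promoters. The stretch of Muc1, the other gene found in the table and not printed, held 1 such match, 2 GC boxes and 1 E-box. These are matches of letters, with no measurement of binding behind them.

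The values are molecule counts from an nCounter panel, scaled by the submitters so that the housekeeping genes have the same geometric mean in every sample; they are called normalized counts below. Recovered total counts ran from 226863, in ENT+CTLA4+HER2 replicate 1, to 483418 per sample. The samples ran on 2 cartridges of 12: vehicle, ENT and ENT+PD1 on the first, and the other arms with the repeat-titled pair on the second. Treatment and cartridge therefore cannot be told apart when an anti-CTLA-4 arm is set against vehicle. The labelled source was whole tumour, while the protocol ends on isolation of immune cells. The epithelial markers Epcam and Cdh1 were read in 24 of 24 samples, and the summed counts of 4 leukocyte markers (Ptprc, Itgb2, Lcp1 and Cd53) ran from 695 to 2798. Of the 9 genes, 7 were above the negative control probes (mean plus 2 SD) in all 24 samples, Muc1 in 22 and Spink5 in 19. All 9 had at least 20 normalized counts in at least 4 samples, which was the filter for testing, but Spink5 reached 20 in only 6. Spp1 took 11.3% of all gene counts and Epcam 1.57%. Calls below use limma on log2(normalized count + 1) and a Benjamini-Hochberg adjusted p under 0.05 over the 621 genes tested; changes are differences on that log2 scale, given with a standard error.

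**Figure D1:**
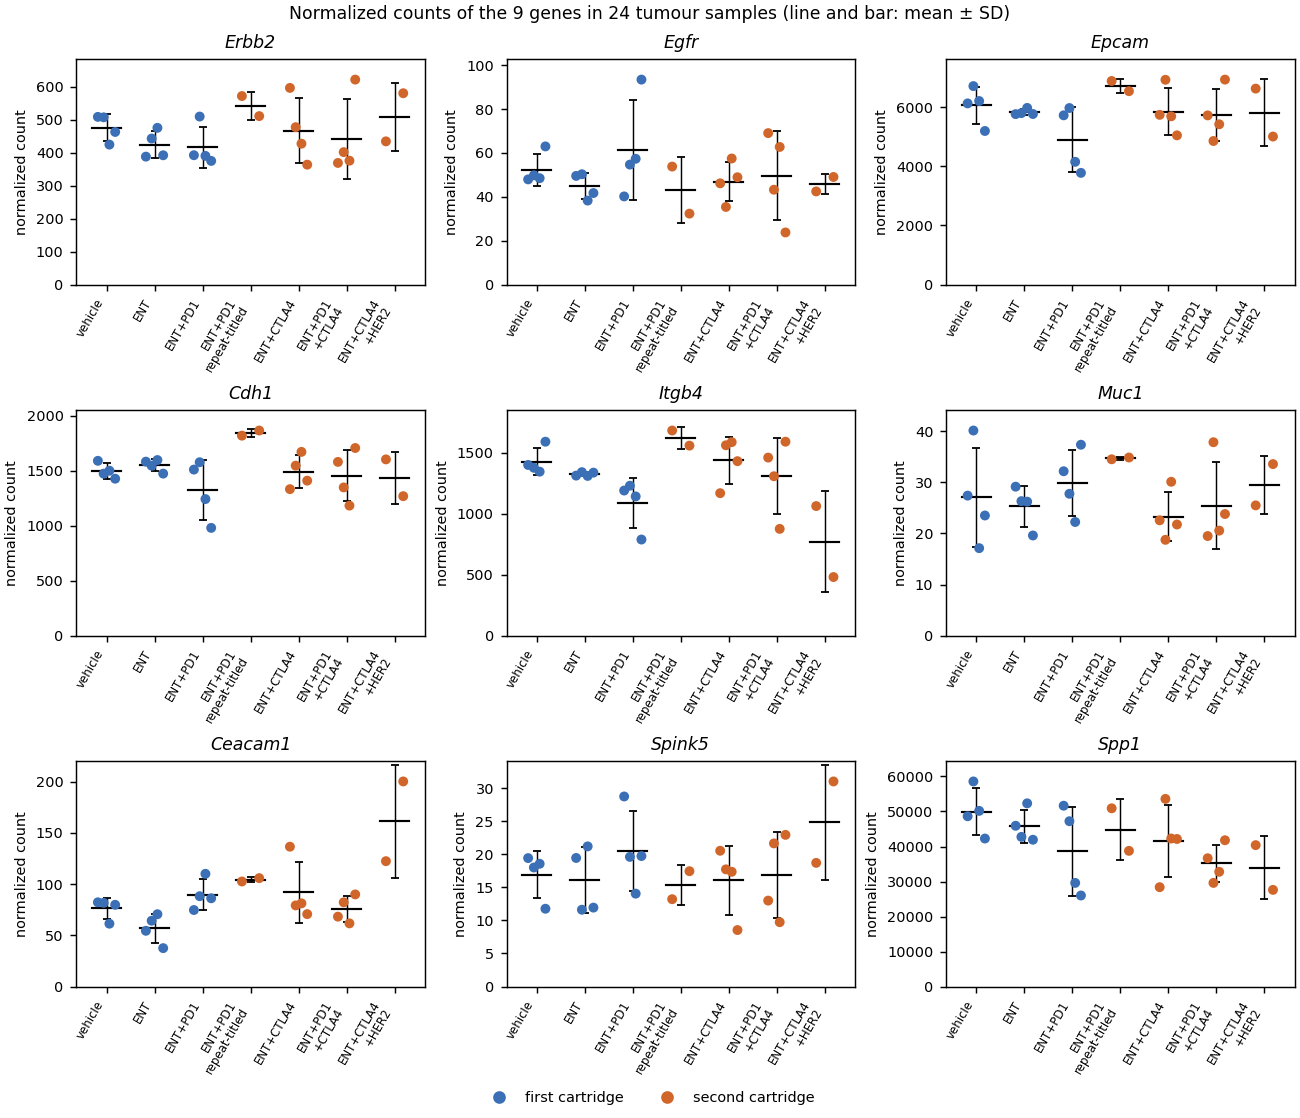
Normalized counts of the 9 genes (vertical axes, each starting at 0) in every sample of each arm; the horizontal line is the mean of an arm and the bar its SD, blue points are the first cartridge and orange points the second. The ENT+CTLA4+HER2 samples hold the lowest Itgb4 value, 480.3, and the highest Ceacam1 value, 200.1, and ENT+PD1 replicates 5 and 6 the lowest Epcam values.

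Counts of the Erbb2 probe, which was listed against a mouse transcript, overlapped between all arms, and no comparison called Erbb2. Whether they include rat neu, the form of HER2 that these mice carry, was not tested. Erbb2 read 425, 464, 508 and 509 normalized counts in vehicle and 389, 393, 444 and 476 in ENT. It read 376, 391, 393 and 510.3 in ENT+PD1, and the arms of the first cartridge overlapped. On the second cartridge Erbb2 read 364, 428, 478 and 597 in ENT+CTLA4 samples, 369, 376, 402 and 622 in those of ENT+PD1+CTLA4, and 435 and 581 in ENT+CTLA4+HER2. Both anti-HER2 samples lay within the range of ENT+CTLA4, and all 3 arms overlapped. By mean the order was ENT+CTLA4+HER2 (508 ± 103, SD, n = 2), vehicle (476 ± 40.3, n = 4), ENT+CTLA4 (467 ± 98.6), ENT+PD1+CTLA4 (443 ± 121), ENT (425 ± 42.1) and ENT+PD1 (417 ± 62.4, n = 4 in each of the last 4), and no neighbours differed beyond these SDs.

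Erbb2 in ENT+CTLA4+HER2 set against ENT+CTLA4 changed by 0.13 ± 0.21 (95% interval -0.31 to 0.57, limma adjusted p = 0.856). The sign of this difference was not settled: it was -0.078 without ENT+CTLA4+HER2 replicate 2, and -0.061 and -0.043 by edgeR and DESeq2 on the recovered counts, with adjusted p from 0.577 to 0.995 over all 17 alternatives. The comparison with the smallest p for Erbb2 was ENT+PD1 against vehicle, at -0.20 ± 0.17 (limma adjusted p = 0.608). Erbb2 was steady for a gene of this panel, with a range of 1.71-fold over the 24 samples, and 21.3% of the tested genes had a smaller SD of log2 counts.

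Egfr, the other receptor, was read at 23.8 to 93.4 normalized counts, a range of 3.92-fold. It read 48.0, 48.5, 49.8 and 63.0 in vehicle, 38.3, 41.8, 49.6 and 50.3 in ENT, and 40.2, 54.7, 57.3 and 93.4 in ENT+PD1. In the second cartridge it read 35.4, 46.2, 48.9 and 57.5 in ENT+CTLA4 samples, 23.8, 43.3, 62.7 and 69.0 in those of ENT+PD1+CTLA4, and 42.5 and 49.1 in ENT+CTLA4+HER2. The highest and the lowest Egfr values came from ENT+PD1 replicate 6 and ENT+PD1+CTLA4 replicate 2, and all arms overlapped. The smallest p was for ENT+PD1 against ENT, 0.38 ± 0.28 (limma adjusted p = 0.395), and under quantile normalization this difference turned to -0.12. The same 2 samples held the extremes of the fibroblast markers (Fn1, Col1a1, Col3a1, Pdgfrb, Thy1 and Fap): their summed count was 28191 in ENT+PD1 replicate 6 and 1894 in ENT+PD1+CTLA4 replicate 2, with 7325 to 19776 in the other 20 samples of the fit. The part of stromal content in the Egfr values was not tested, and in bulk tumour RNA fewer cells of a type and less RNA per cell cannot be told apart.

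**Figure D2:**
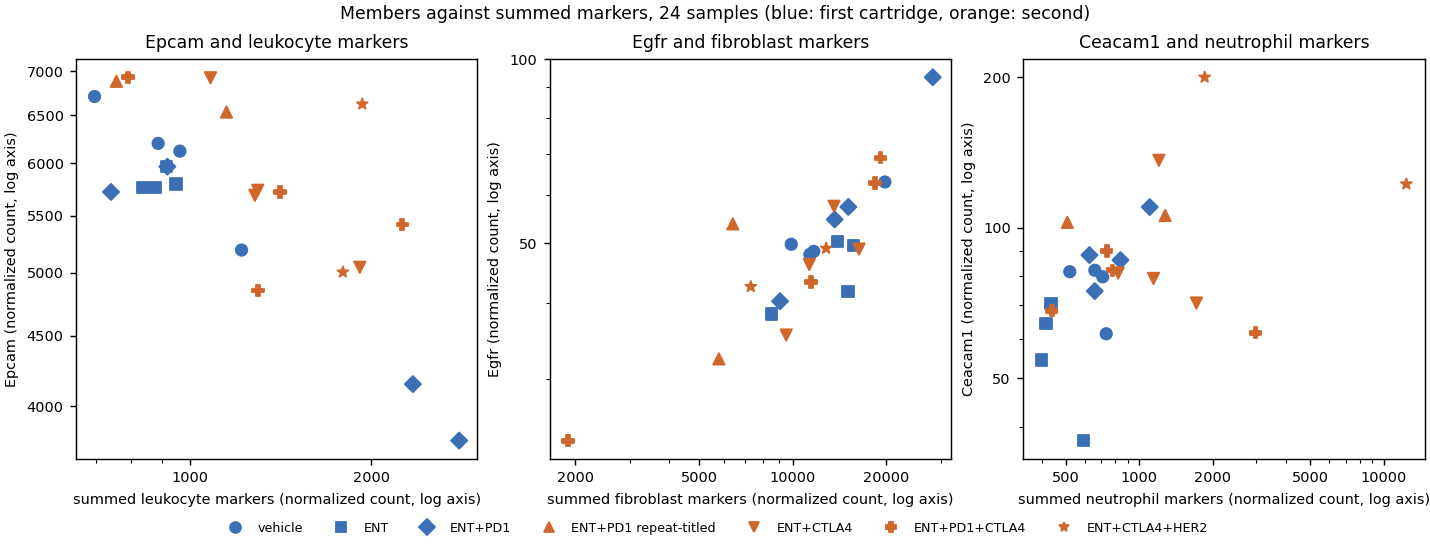
Epcam against summed leukocyte markers, Egfr against summed fibroblast markers and Ceacam1 against summed neutrophil markers, as normalized counts on log axes, in 24 samples by arm (symbols) and cartridge (colours). ENT+PD1 replicates 5 and 6 sit at the high end of the leukocyte axis with the lowest Epcam, and ENT+CTLA4+HER2 replicate 1 stands alone at 12384 neutrophil counts.

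The genes of the HER2 and EGFR route showed no call. Of 46 listed ligands, adaptors and kinases, 20 were on the panel and 19 were tested, and 0 of 19 were called higher or lower in each of the 9 comparisons. In ENT+CTLA4+HER2 against ENT+CTLA4, 11 of 19 lay above 0 with a median change of 0.047, beside a median of 0.17 over all 621 genes. The smallest p values there belonged to Mapk8, a JNK kinase, at 0.47 ± 0.18 (limma adjusted p = 0.169), to the small GTPase gene Hras at 0.91 ± 0.39 (adjusted p = 0.202) and to Mapkapk2, a kinase downstream of p38, at 0.23 ± 0.14 (adjusted p = 0.405). In ENT+PD1 against ENT, 12 of 19 lay above 0 with a median of 0.12, beside 0.34 over all genes. In ENT against vehicle 3 of 19 lay above 0, with a median of -0.049 beside -0.11 over all genes.

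Among the adhesion genes, Itgb4 was lowest in the anti-HER2 arm. It read 1062 and 480.3 normalized counts in the 2 ENT+CTLA4+HER2 samples. In ENT+CTLA4 it read 1168, 1429.9, 1560.2 and 1586, and in the ENT+PD1+CTLA4 arm 875, 1306, 1459 and 1589. Both anti-HER2 samples lay below every ENT+CTLA4 sample, as 1 of 9 members whose arms did not overlap beside 28.8% of all genes, and 1 of the ENT+PD1+CTLA4 samples, replicate 1, lay between them. On the first cartridge Itgb4 read 1344, 1376, 1399 and 1589.6 in vehicle, 1309, 1312, 1336 and 1339.9 in ENT, and 788, 1141, 1189 and 1229 in ENT+PD1. Those 3 arms did not overlap, in the order vehicle, ENT, ENT+PD1 under the deposited scaling, although none of the 3 comparisons between them passed the test; arms also did not overlap for 6.44% of all genes in ENT against vehicle, 2.58% in ENT+PD1 against vehicle and 7.09% in ENT+PD1 against ENT. The step from vehicle to ENT turned to 0.041 with median rescaling and to 0.018 with quantile normalization, while the changes of ENT+PD1 against both arms kept their sign. The repeat-titled pair, with an ENT+PD1 title on the second cartridge, read 1557 and 1681, above all ENT+PD1 samples of the first.

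Itgb4 fell in ENT+CTLA4+HER2 against ENT+CTLA4 by 0.996 on the log2 scale, with an SE of 0.26, which is 1.99-fold lower (limma adjusted p = 0.0472). This was 1 of 9 members called, beside 2.25% of all genes tested in that comparison. The call was lost in 12 of 17 alternatives, over which the change ran from -1.57 to -0.42. Without ENT+CTLA4+HER2 replicate 2 the change was -0.42. The call was also lost without ENT+CTLA4 replicates 2, 5 or 6 in turn (adjusted p = 0.113, 0.104 and 0.0891), under median rescaling (0.170), under quantile normalization (0.107), and by edgeR (0.108) and DESeq2 (0.0733). Other losses came with the samples of that cartridge alone (limma adjusted p = 0.154) and with only the arms compared (0.193). They came too with a replicate block (0.110) and with the repeat-titled pair added (0.0584). The sign was negative in all of these. Against vehicle, where cartridge and treatment cannot be told apart, Itgb4 fell by 0.99 (SE 0.26, limma adjusted p = 0.0340), 1.99-fold lower, with 0.597 as the adjusted p without replicate 2. Leaving out any 1 vehicle sample moved the adjusted p to between 0.0555 and 0.0674, and the call was also lost under median rescaling (0.0978) and by edgeR (0.121) and DESeq2 (0.0649). A cartridge block, which can be estimated only through the 2 repeat-titled samples taken as ENT+PD1, gave -1.59 (limma adjusted p = 0.0447). Against ENT+PD1+CTLA4 it did not pass (adjusted p = 0.0703).

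Ceacam1 stood highest after anti-HER2. It read 122.3 and 200.1 normalized counts in the 2 ENT+CTLA4+HER2 samples. It read 61.7, 68.2, 82.2 and 89.9 in ENT+PD1+CTLA4, and 70.7, 79.2, 81.2 and 136.5 in ENT+CTLA4. Both anti-HER2 samples lay above every ENT+PD1+CTLA4 sample, the 1 member of 9 with arms that did not overlap there beside 21.4% of all genes, while ENT+CTLA4 replicate 1 reached between them. Vehicle read 61.4, 79.8, 81.7 and 82.2, ENT 37.5, 54.4, 64.3 and 70.6, and ENT+PD1 74.7, 86.1, 88.2 and 110.01. ENT+PD1 lay wholly above ENT, though the difference did not pass (limma adjusted p = 0.205), and both overlapped vehicle.

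Ceacam1 rose in ENT+CTLA4+HER2 against ENT+PD1+CTLA4 by 1.06 ± 0.28, which is 2.08-fold (limma adjusted p = 0.0451). This was 1 of 9 members called, beside 3.06% of all genes tested. Without ENT+CTLA4+HER2 replicate 2 the change was 0.70 (adjusted p = 0.426), and over 17 alternatives it ran from 0.70 to 1.41 with adjusted p from 0.0275 to 0.426. The call was lost without ENT+PD1+CTLA4 replicates 1, 5 or 6 in turn (adjusted p = 0.0573, 0.122 and 0.0812), under median rescaling (0.218), under quantile normalization (0.183), and by edgeR (0.146) and DESeq2 (0.0987). Other losses came with the samples of that cartridge alone (limma adjusted p = 0.131), only the arms compared (0.336) and a replicate block (0.0839). The direction was kept in each. Against ENT+CTLA4 alone it did not pass (adjusted p = 0.114). Against vehicle, across cartridges, Ceacam1 rose by 1.04 ± 0.28, 2.05-fold (limma adjusted p = 0.0400), and 2 of 9 members were called beside 5.48% of all genes. Without ENT+CTLA4+HER2 replicate 2 that change was 0.69 (adjusted p = 0.501), and leaving out any 1 vehicle sample gave an adjusted p between 0.0576 and 0.1003. The call was also lost with the cartridge block (0.81, adjusted p = 0.174), under median rescaling (0.156), under quantile normalization (0.148) and by edgeR (0.0547). Ceacam1 was also the only member called by the F test across the 6 arms (limma adjusted p = 0.0330), beside 8.53% of all genes; that test spans the cartridges, and with the block, which rests on the repeat-titled pair, it called 0 genes. Itgb4 had an adjusted p of 0.0778 there.

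**Figure D3:**
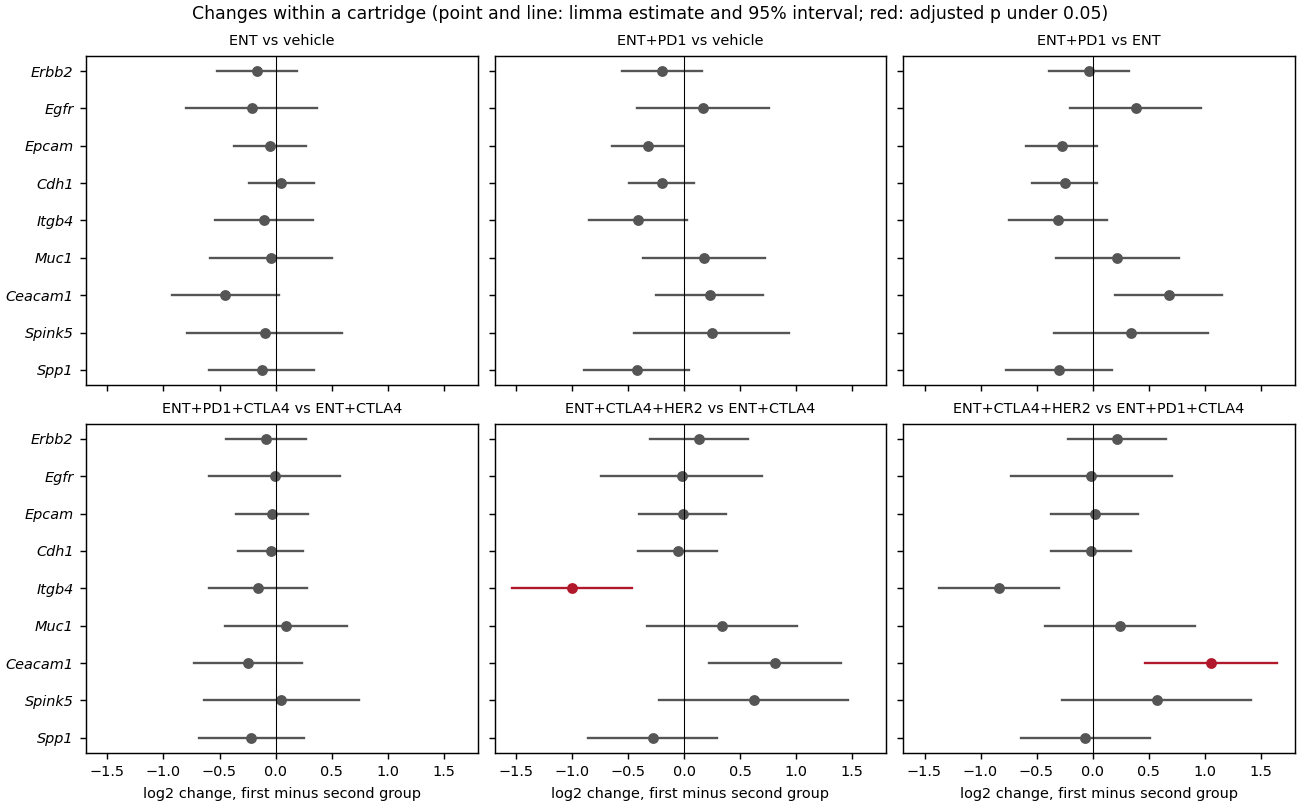
Log2 changes of the 9 genes (horizontal axis, first minus second group) with 95% intervals from limma in the 6 comparisons that lie within a cartridge; red marks an adjusted p under 0.05. Red appears for Itgb4 at -0.996 in ENT+CTLA4+HER2 against ENT+CTLA4 and for Ceacam1 at 1.06 in ENT+CTLA4+HER2 against ENT+PD1+CTLA4. The spread is pooled over both cartridges. Fitted on the samples of that cartridge alone, neither was called (limma adjusted p = 0.154 and 0.131).

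Neutrophil markers were also high in this arm. The summed neutrophil markers (S100a8, Csf3r and Cxcr2) were 12384 and 1854 in the 2 ENT+CTLA4+HER2 samples, against 821 to 1715 in ENT+CTLA4 samples and 439 to 2994 in those of ENT+PD1+CTLA4. All 3 lay higher in ENT+CTLA4+HER2 than in ENT+PD1+CTLA4, with 1 of 3 called beside 3.06% of all genes, and 0 of 3 were called against ENT+CTLA4 beside 2.25%. Against vehicle, across cartridges, 3 of 3 were called higher beside 5.48%. The sample with 12384 was replicate 1, whereas the highest Ceacam1 and the lowest Itgb4 were both in replicate 2. The summed leukocyte markers were 1932 and 1795 there, while ENT+CTLA4 samples ran from 1082 to 1914 and those of ENT+PD1+CTLA4 from 790 to 2252. Neutrophils are known to carry CEACAM1, and the part of leukocytes in the Ceacam1 values was not tested.

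Epcam and Cdh1, the 2 epithelial adhesion genes that pair most closely, were steady in most tumours. Epcam read 5192, 6124, 6203 and 6708 in vehicle, 5761, 5765, 5795 and 5971 in ENT, and 3778, 4151, 5721 and 5967 in ENT+PD1. The low values in ENT+PD1 were those of replicates 5 and 6, which lay below all other samples, and replicates 1 and 2 lay within the vehicle range. On the second cartridge Epcam read 5045, 5688, 5737 and 6921 in ENT+CTLA4 samples, 4854, 5418, 5719 and 6927 in those of ENT+PD1+CTLA4, and 5004 and 6623 in ENT+CTLA4+HER2, and the arms overlapped. The smallest p was for ENT+PD1 against vehicle at -0.33 ± 0.15 (limma adjusted p = 0.470), beside a median change of 0.18 over all genes. Without ENT+PD1 replicates 5 and 6 it was -0.046, and the adjusted p over 20 alternatives ran from 0.143 to 1.00.

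Cdh1 followed the same samples. It read 980 and 1242 in ENT+PD1 replicates 6 and 5, and 1509.7 and 1577 in replicates 1 and 2. In vehicle it ran from 1427 to 1589 and in ENT from 1473 to 1596, so that 2 of 4 ENT+PD1 samples lay below both arms. It ran from 1332 to 1671 in ENT+CTLA4, in ENT+PD1+CTLA4 from 1182 to 1706, and it was 1268 and 1602 in ENT+CTLA4+HER2. The smallest p was for ENT+PD1 against ENT, -0.25 ± 0.14 (limma adjusted p = 0.287), and -0.0052 without replicates 5 and 6. The highest Cdh1 values of the series, 1818 and 1865, were in the repeat-titled pair.

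Spp1 was lower in tumours given both checkpoint antibodies than in vehicle, without passing the test. It read 42279, 48643, 50177 and 58579 in vehicle and 29604, 32778, 36649 and 41788 in ENT+PD1+CTLA4, and these arms did not overlap. The change was -0.51 ± 0.22 (limma adjusted p = 0.298), and 8.53% of all genes did not overlap in that comparison, which spans the cartridges. Spp1 ran from 41935 to 52325 in ENT, from 28383 to 53592 in ENT+CTLA4, and was 40392 and 27614 in ENT+CTLA4+HER2, below all vehicle samples; Spp1, Itgb4 and Ceacam1 were the 3 members whose arms did not overlap in that comparison, beside 29.1% of all genes. In ENT+PD1 it was 29603 and 26011 in replicates 5 and 6, and 51650.3 and 47225 in replicates 1 and 2.

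Muc1 and Spink5 were weak, and their values say little about the arms. Muc1 ran from 17.1 to 40.1 in vehicle and from 18.8 to 37.9 in the samples of the second cartridge, and all arms overlapped. Its smallest p was for ENT+CTLA4+HER2 (25.5 and 33.6) against ENT+CTLA4 (18.8 to 30.1), 0.34 ± 0.32 (limma adjusted p = 0.682), with -0.13 under quantile normalization. Spink5 ran from 8.54 to 31.0 over the 24 samples, while the limit set by the negative probes ran from 8.54 to 25.3 per sample. Its smallest p was in the same comparison (18.7 and 31.0 against 8.54 to 20.5), 0.62 ± 0.40 (limma adjusted p = 0.460).

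Entinostat alone left no member called. Against vehicle, 8 of the 9 were below 0, from -0.45 for Ceacam1 to 0.05 for Cdh1, with a median of -0.10 beside -0.11 over all genes, of which 26.2% lay above 0. That count depended on the scaling: 6 of 9 members were above 0 with median rescaling and 5 of 9 with quantile normalization. Limma called 0% of all genes in that comparison and 4.67% had an unadjusted p under 0.05; edgeR and DESeq2 on the recovered counts called 0 as well. Itgb4 was the 1 member whose arms did not overlap, beside 6.44% of all genes. Adding anti-PD-1 to entinostat left 0 of 9 called, beside 0.322% of all genes, with a median member change of -0.032 beside 0.34 over all genes. In that comparison 2 members, Ceacam1 (higher) and Itgb4 (lower), had arms that did not overlap, beside 7.09%. Between ENT+PD1 and vehicle, 0 of 9 were called, beside 0% of all genes by limma, edgeR and DESeq2, with 9.66% at an unadjusted p under 0.05. Between ENT+PD1+CTLA4 and ENT+CTLA4, limma, edgeR and DESeq2 called 0% of all genes, with 1.61% at an unadjusted p under 0.05, and members ran from -0.25 to 0.09. ENT+CTLA4 and ENT+PD1+CTLA4 against vehicle had 0 of 9 called, beside 1.45% and 2.09% of all genes.

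The median of all 621 genes was itself away from 0 in several comparisons. It was 0.34 in ENT+PD1 against ENT and 0.17 in ENT+CTLA4+HER2 against ENT+CTLA4, and rescaling samples to equal medians moved these to -0.0074 and 0.054. All member changes are relative to the housekeeping genes, and the sign of those near these sizes can depend on that scaling. Of the 81 member changes (9 genes in 9 comparisons), 28 turned sign under median rescaling or quantile normalization, and none of these was called. Quantile normalization also put Spp1, the gene with the highest median, at exactly 0 in 3 comparisons.

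Other genes of epithelial tumours, such as integrins, survival and cell cycle genes, were read on a list of 35, of which 17 were on the panel and tested. None of the 17 was called by limma in any of the 9 comparisons. In ENT+CTLA4+HER2 against ENT+CTLA4 the smallest p values belonged to Vegfa, an angiogenic growth factor, at 0.44 ± 0.24 (limma adjusted p = 0.350), Itga6, the integrin alpha chain that pairs with beta 4, at 0.30 ± 0.20 (adjusted p = 0.472), and the tetraspanin Cd9 at -0.22 ± 0.17 (adjusted p = 0.548). Itga6 thus lay on the other side of 0 from Itgb4 there. In ENT+PD1 against ENT they belonged to the cell cycle inhibitor Cdkn1a at 0.51 ± 0.17 (adjusted p = 0.205), the survivin gene Birc5 at -0.48 ± 0.21 (adjusted p = 0.250) and Trp53 at -0.25 ± 0.12 (adjusted p = 0.254).

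Across tumours, Epcam, Cdh1 and Spp1 moved together and against the leukocyte markers by Pearson's r. Correlations of log2 counts were computed over the 22 samples for 45 pairs, 36 between members and 9 with the summed leukocyte markers, with 100000 permutations each. At an adjusted p under 0.05 for Pearson's r, 18 of 45 pairs passed, and for Spearman's rho 4 passed, all among the 18. Itgb4 passed with Cdh1 (r = 0.66), Spp1 (0.61) and the leukocyte markers (-0.55), and not with Epcam (0.47, adjusted permutation p = 0.0724). Ceacam1, also an adhesion gene, ran against Itgb4 (r = -0.54, adjusted permutation p = 0.0421), a pair that passed in 0 of 7 alternatives. Its r was -0.16 with Epcam, -0.23 with Cdh1 and 0.39 with the leukocyte markers, and none of these passed. Epcam and Cdh1 had r = 0.81 and rho = 0.68 (permutation p = 5e-05 and 0.00062, adjusted 0.00075 and 0.0139). Epcam and Spp1 had r = 0.74 and rho = 0.67 (permutation p = 2e-05 and 0.00097, adjusted 0.00075 and 0.0145). Epcam and the leukocyte markers had r = -0.70 and rho = -0.66 (permutation p = 0.00019 and 0.0013, adjusted 0.0014 and 0.0151), and Spp1 and the leukocyte markers r = -0.77 and rho = -0.74 (permutation p = 5e-05 and 0.00016, adjusted 0.00075 and 0.0072).

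Much of this pattern rested on ENT+PD1 replicates 5 and 6, which are low in Epcam, Cdh1 and Spp1 and had the highest leukocyte marker sums (2344 and 2798). Without these 2 samples, which were also the 2 farthest from the median Epcam value, 6 of 45 pairs passed. Epcam and Cdh1 then had r = 0.62 (adjusted permutation p = 0.0370), Epcam and Spp1 r = 0.62 (0.0379) and Spp1 and leukocyte markers r = -0.67 (0.0290), while Epcam and leukocyte markers had r = -0.48 (0.0941). Within the first cartridge of 12 samples 10 pairs passed, and within the 10 fitted samples of the second 0 passed. Epcam and Cdh1 had r = 0.90 within the first and 0.68 within the second, and Epcam and Spp1 0.96 and 0.67. Spp1 and the leukocyte markers had r = -0.95 within the first and -0.33 within the second. The quantile scaling took the r of Epcam with Spp1 to 0.016 and that of Cdh1 with Spp1 to 0.089. It took that of Spp1 with the leukocyte markers to -0.24, and left that of Epcam with Cdh1 at 0.85.

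The 2 receptors had a negative correlation that depended on the scaling. Erbb2 and Egfr had r = -0.50 and rho = -0.41 (permutation p = 0.0168 and 0.0600, adjusted 0.0421 and 0.142). That value rested on ENT+CTLA4 replicate 1 and ENT+PD1+CTLA4 replicate 2, without which r was -0.31, and it was -0.22 within the first cartridge and -0.64 within the second. It was -0.37 under median rescaling and -0.032 under quantile normalization (adjusted permutation p = 0.136 and 0.910), and passed in 1 of 7 alternatives. Egfr also ran against Epcam, with r = -0.67 and rho = -0.57 (permutation p = 0.0011 and 0.0065, adjusted 0.0064 and 0.0575). Without ENT+PD1 replicate 6 and ENT+PD1+CTLA4 replicate 2 that r was -0.40, and under quantile normalization it turned to 0.075. Within the first and second cartridge it was -0.75 and -0.58. Erbb2 rose with Ceacam1, with r = 0.57 and rho = 0.54 (permutation p = 0.0050 and 0.0095, adjusted 0.0187 and 0.0575). It stayed at 0.53 without the 2 samples farthest from the median Erbb2 value, and was 0.28 and 0.72 within the cartridges.

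**Figure D4:**
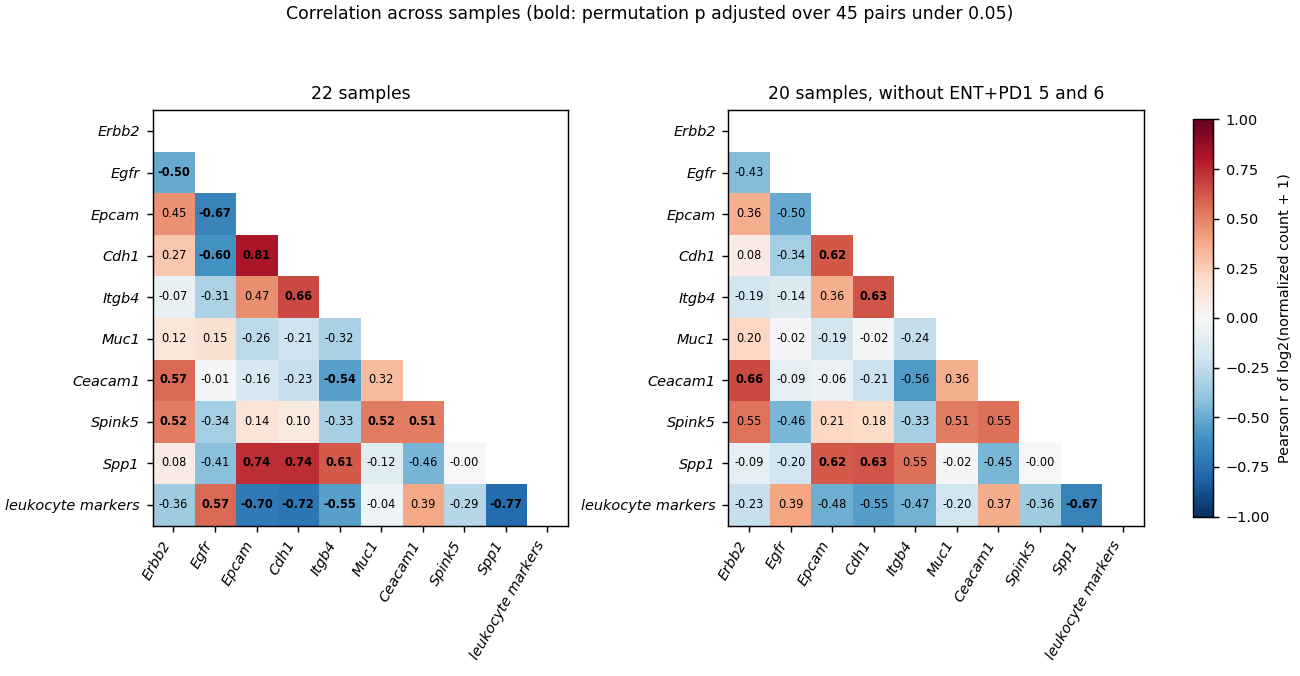
Pearson r of log2(normalized count + 1) for each pair of the 9 genes and the summed leukocyte markers, over 22 samples (left) and without ENT+PD1 replicates 5 and 6 (right); bold marks an adjusted permutation p under 0.05. Of the 45 pairs, 18 are bold on the left and 6 on the right.

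The genes whose pattern lay nearest to each member were taken as the 3 with the highest Spearman rho among 621 genes over the 22 samples, as a description with no test. Those of Erbb2 were the integrin gene Itga6 (rho = 0.84), the guanine nucleotide exchange factor Dock9 (0.83) and lipocalin 2, Lcn2 (0.78). Those of Egfr were the collagen gene Col3a1 (0.85), Cd34, a marker of vessels and fibroblasts (0.84), and Hif1a (0.83). Epcam was nearest to the chemokine Cx3cl1 (0.77), the receptor Il13ra1 (0.77) and the TWEAK receptor Tnfrsf12a (0.76). Cdh1 was nearest to Epcam (0.68), Isg20 (0.68) and Il13ra1 (0.67).

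Among the genes nearest to Spp1 were Il13ra1 (0.83) and the ectonucleotidase gene Nt5e (0.81). Il13ra1 was thus among the 3 nearest genes of Epcam, Cdh1 and Spp1. Ceacam1 was nearest to the B-cell adaptor gene Blnk (0.81), Sbno2 (0.75) and the transcription factor Xbp1 (0.72). Itgb4 was nearest to clusterin, Clu (0.69), App (0.65) and the tetraspanin Cd63 (0.65). The weak genes had lower values: Spink5 was nearest to Csf3 (0.67), Lcn2 (0.63) and Tfrc (0.60), and Muc1 to Reps1 (0.55), Spink5 (0.55) and Egr2 (0.54).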

How the data were processed

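RNA of 24 tumour samples was counted on an nCounter panel holding 750 endogenous genes, 20 housekeeping genes, 8 negative probes and 6 positive ones. The deposited values are a normalized signal on a linear scale: in every sample the housekeeping geometric mean was 346.9, and dividing by a single factor gave whole numbers for 100% of values above 1 (tolerance 0.05). A further 82 gene values lay at exactly 1. Limma is named in the submitters' processing notes with no role or version, and how the authors normalized is not given in the sources used here. Per its title, the series used the PanCancer Immune panel, the label protocol names a myeloid one, and the genes were used as listed in the table. Scaling factors ran from 0.774 to 1.70, so a low total raises the counting error of weak genes. The factor of 1.70 and the lowest total were those of ENT+CTLA4+HER2 replicate 1.

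Testing was limited to genes reaching 20 in 4 or more samples (621 of 770; 149 left out). Limma 3.58.1 (R 4.3.3) was fitted to log2(value + 1) with eBayes trend over 22 samples in 6 arms, without the repeat-titled pair. The +1 understates changes of weak genes. EdgeR 4.0.16 and DESeq2 1.42.0 were run on recovered counts as alternatives. Other alternatives were a pseudocount of 10, no filter, median and quantile rescaling, a replicate block, a cartridge block (estimable only with the repeat-titled pair taken as ENT+PD1), that pair added with no block, only the arms compared, and each sample left out. Fits within 1 cartridge, without ENT+PD1 replicates 5 and 6, and correlations without ENT+CTLA4+HER2 were chosen after seeing the data. Only the limma code was tested on simulated data, which held no cartridge effect. The edgeR, DESeq2 and correlation code was not tested in this way. Correlations used Python 3 with scipy, and promoters came from RefSeq (GRCm38.p6). A member's change was printed for its smallest-p comparison, for any call, and for Erbb2 after anti-HER2; up to 3 genes of each list were named by smallest p in the comparisons used. A gene that the nearest-pattern rule selects is not reported here. Members, lists and tests were chosen with earlier results of these data known. Whether replicate numbers pair samples was not settled. Over 40 same-numbered pairs the median correlation of deviations was -0.03, from -0.45 to 0.63, and 14 were above 0.1. Pairs with different numbers were not computed for comparison.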

Additional observations from a re-analysis of the deposited data

Results flagged for a closer look

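In 45 sets of 4 samples (9 genes in 5 arms) a single sample stood far from the other 3 in 6 sets, where chance gives about 5% of sets. Erbb2 was high in ENT+PD1 replicate 2 (510.3 normalized counts) and in ENT+PD1+CTLA4 replicate 2 (622.4). Egfr was high in vehicle replicate 3 (62.98). Epcam in ENT replicate 3 (5971) lay above the other ENT samples, which read 5761 to 5795, and within the vehicle range of 5192 to 6708. Ceacam1 was low in vehicle replicate 2 (61.35) and high in ENT+CTLA4 replicate 1 (136.5). ENT+PD1+CTLA4 replicate 2 also held the lowest Egfr and the lowest fibroblast marker sum of the series.

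Mean Ceacam1 was higher in ENT+PD1 than in ENT and lower in ENT+PD1+CTLA4 than in ENT+CTLA4, and these mean differences lay 49.45 normalized counts apart; neither passed (limma adjusted p = 0.205 and 1.00). The second, -16.4, was -1.52 without ENT+CTLA4 replicate 1. The direct test of this interaction did not pass (log2 difference -0.92 ± 0.32, limma adjusted p = 0.595), and the 2 differences come from different cartridges.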

How the results depend on the processing

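Calls of members kept their direction under all alternatives, but the Itgb4 and Ceacam1 calls were lost in 42 of 66 alternative fits. Of the 81 member changes, 12 turned sign under median rescaling and 25 under quantile normalization, none of them called. They included Egfr in ENT+PD1 against ENT (-0.12 under quantile normalization) and Muc1 in ENT+CTLA4+HER2 against ENT+CTLA4 (-0.13, quantile). Erbb2 there turned under other alternatives (-0.061 by edgeR, -0.043 by DESeq2, and -0.078 to 0.34 when each sample was left out). The r of Egfr turned with Epcam (0.075, quantile), with Cdh1 (0.18, quantile) and with leukocyte markers (-0.25 by median rescaling, -0.36 by quantile). Of the 45 correlations 18 passed, against 10 in the first cartridge, 0 in the second (fewer samples in each), and 6 without ENT+PD1 replicates 5 and 6. Median rescaling gave 27 (13 among the 18) and quantile normalization 20 (9 among the 18), so that which pairs passed changed. Pairs with Spp1 cannot be judged under quantile normalization, which leaves a gene of top rank little room to vary. The causes were not tested.

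Counts of 0 genes called stayed 0 under every alternative in ENT and ENT+PD1 against vehicle and in ENT+PD1+CTLA4 against ENT+CTLA4, and the others moved as follows. For ENT+PD1 against ENT (2 genes) there were 0 with a pseudocount of 10, median rescaling, quantile normalization, edgeR, only those arms, the pair added, 1 cartridge, or without ENT+PD1 5 and 6, 1 by DESeq2, and 0 to 26 with each sample left out. For ENT+CTLA4 against vehicle (9) there were 0 with quantile normalization, only those arms, the pair added or the cartridge block, 21 by DESeq2, and 0 to 22 with samples left out. For ENT+PD1+CTLA4 against vehicle (13) there were 0 with both rescalings, edgeR, DESeq2, only those arms, the pair added or the cartridge block, and 0 to 18 with samples left out. For ENT+CTLA4+HER2 against ENT+CTLA4 (14) there were 0 with both rescalings, only those arms or 1 cartridge, 5 with the pair added, 23 by DESeq2, and 0 to 23 with samples left out. Against ENT+PD1+CTLA4 (19) there were 1 and 3 with median and quantile rescaling, 0 with only those arms or 1 cartridge, and 0 to 35 with samples left out. Against vehicle (34) there were 59 with quantile normalization, 55 by DESeq2, 3 with the cartridge block, and 8 to 37 with samples left out. The F test (53) gave 28 and 3 with median and quantile rescaling, 96 by DESeq2, 14 with the pair added, 0 with the cartridge block, and 18 to 88 with samples left out.

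With the replicate number as a block, which is not known to pair samples here, 0 genes were called in each of these except ENT+CTLA4+HER2 against vehicle (32). Leaving out 1 of the 2 ENT+CTLA4+HER2 samples assumes that the other varies like the rest. Muc1 and Spink5 lay near the negative probes, which limits what their values can show.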
